A study of Mus musculus with 2 samples.

Results

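Maturing erythroblasts carry a set of adhesion and surface proteins that hold them to their neighbours and mark their stage. The 8 genes described here encode CD44, CD47, the integrin chains alpha4 and beta1, basigin, CD24, CD36 and CD43 (Cd44, Cd47, Itga4, Itgb1, Bsg, Cd24a, Cd36 and Spn). They were chosen by name, though with earlier results of these data known, from 43346 named genes, of which 21474 were annotated as protein-coding. Each was read from both deposited gene tables and, through its 33 listed transcripts, from both transcript tables. The cells were MEL, an immortalized mouse erythroleukemia line that stands in for red cell precursors, exposed to 2% dimethyl sulfoxide (DMSO) for 5 days, a treatment known to start hemoglobin synthesis in this line. Polyadenylated RNA was read single-end in 2 libraries, labelled biological replicates 1 and 2 of the same group. No untreated cells were analysed here, so each value is a level in treated cells. The line grows without the macrophages of the marrow, and both libraries carry a single cell sample identifier, so the spread between them may be technical.

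In the marrow, erythroblasts mature around a central macrophage in erythroblastic islands. The integrin alpha4beta1 on the erythroblast binds VCAM-1 on the macrophage and fibronectin in the matrix, and it is lost as the cell matures. CD44, the receptor for hyaluronan, declines stepwise on mouse erythroblasts and is used with cell size to stage them, while CD47 on the surface tells macrophages not to engulf the cell. Basigin is a chaperone for lactate transporters, CD24 a short mucin-like protein on a lipid anchor, CD36 a receptor for thrombospondin and fatty acids, and CD43 a long sialomucin of blood cells.

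Replicate 1 held 26149725 estimated reads and replicate 2 held 14149299. For a gene without reads, a count of 3 sets an upper limit of 0.115 CPM (a gene's reads over all reads of its library, on a common scale) in replicate 1 and 0.212 CPM in replicate 2. Intervals and these limits cover counting error only. Of 8 erythroid markers, 8 reached 1 TPM (reads scaled to transcript length and depth) in both libraries, with a summed level of 22003.9 TPM in replicate 1 and 36823.7 TPM in replicate 2. On protein-coding transcripts Hba-a1 had 1941 TPM in replicate 1 and 719 TPM in replicate 2, against 9832 and 18523 TPM for the gene. Hbb-bs had 2017 and 4253 TPM on such transcripts, against 8546 and 12944.5 TPM for the gene. Markers of island macrophages reached 1 TPM in both libraries for 1 of 8 genes, with sums of 4.29 TPM in replicate 1 and 9.26 TPM in replicate 2, and Mrc1 and Vcam1 were at 0. Lymphocyte markers passed this limit for 1 of 7 (sums 6.85 and 5.34 TPM), granulocyte markers for 1 of 6 (6.18 and 19.9 TPM), stem and progenitor markers for 1 of 5 (10.2 and 9.46 TPM) and endothelial markers for 1 of 5 (5.74 and 6.10 TPM). On protein-coding transcripts Cd68, the passing macrophage marker, had 3.17 and 5.66 TPM, the same as for the gene. The passing lymphocyte gene Lck had 0.46 and 0.64 TPM there, and the granulocyte gene Prtn3 had 0 and 0 TPM. The progenitor gene Hlf had 1.03 and 0.82 TPM there, and the endothelial gene Pecam1 had 0.15 and 0.23 TPM. Mast cell markers passed for 0 of 5 (0.19 and 0.53 TPM). Megakaryocyte markers passed for 4 of 7, with sums of 95.2 TPM in replicate 1 and 188.8 TPM in replicate 2, and Gp6 was at 0. The highest of them, Itga2b, had 13.25 and 39.04 TPM on protein-coding transcripts, against 74.7 and 148.9 TPM for the gene. Pf4 (13.7 and 20.1 TPM) and Gp9 (2.96 and 12.3 TPM) lay wholly on such transcripts.

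The 8 surface genes were all detected, at levels that spanned basigin at the top and CD36 at the bottom. At least 1 TPM in both libraries was reached by 8 of 8, against 45.5% of protein-coding genes and 25.4% of all named genes. Their median was 27.8 TPM, against 15.5 TPM over the protein-coding genes that were detected. In bulk RNA, fewer cells of a type and less RNA per cell cannot be told apart, so a low level may belong to all cells or to some. Basigin averaged 241 ± 131 TPM, integrin beta1 220.0 ± 22.0 TPM and CD24 161 ± 44.5 TPM (SD, n = 2 libraries). CD47 followed at 35.7 ± 2.86 TPM, alpha4 at 19.8 ± 8.70 TPM, CD43 at 9.97 ± 2.94 TPM, CD44 at 4.43 ± 1.80 TPM and CD36 at 1.33 ± 0.410 TPM (SD, n = 2). Among detected protein-coding genes, Bsg stood at the 96.8th percentile, Itga4 at the 57.4th, Cd44 at the 16.4th and Cd36 at the 0.736th.

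Of the 28 pairs of these genes, 26 had the same order of TPM in both libraries. The 2 pairs whose ranges overlapped were Itgb1 with Bsg and Bsg with Cd24a, so basigin could not be placed within the top group. From Cd47 downward each gene lay clear of its neighbours in both libraries. With only the transcripts annotated as protein-coding, 27 of 28 pairs kept 1 order and Itgb1 dropped to 53.4 ± 15.4 TPM (SD, n = 2), below basigin and CD24.

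**Figure D1:**
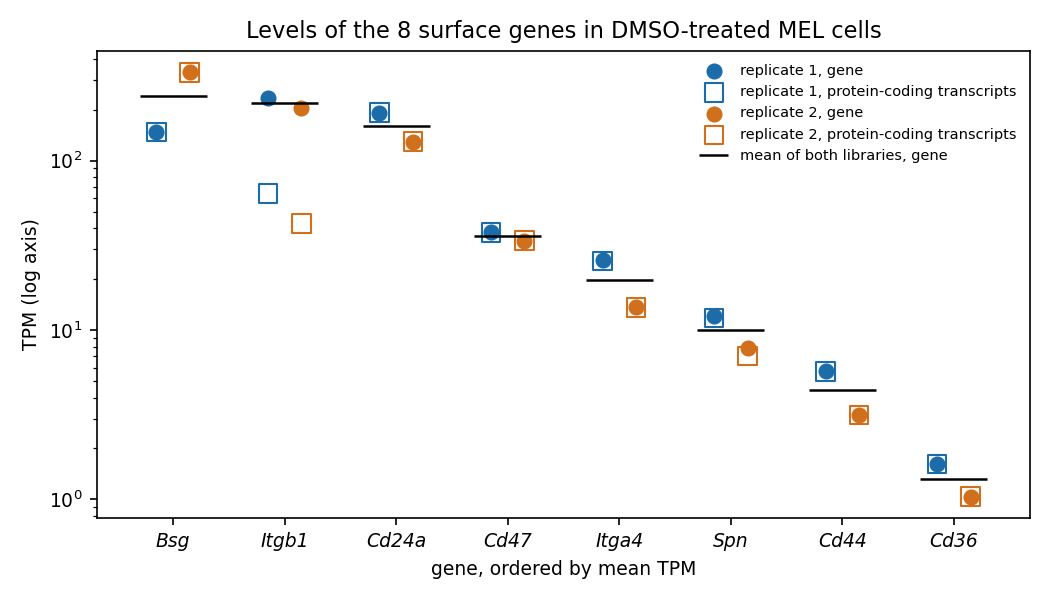
TPM (log axis) of the 8 surface genes in both libraries, with filled circles for the whole gene, open squares for its protein-coding transcripts and bars for the mean of both libraries. The squares sit on the circles for most genes, but for Itgb1 they lie at 64.3 and 42.5 TPM, below gene levels of 236 and 204.5 TPM.

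The integrin pair came first by role. Itgb1 (ENSMUSG00000025809.11; mm10 chromosome 8, 128685654 to 128733200, plus strand) encodes beta1, the chain that partners many alpha chains. It had 236 TPM in replicate 1 and 204.5 TPM in replicate 2, from 7933 and 3011 reads. Both libraries were high, and by gene TPM they lay 1.15-fold apart. On protein-coding transcripts the levels were 64.3 TPM in replicate 1 and 42.5 TPM in replicate 2. As a share of reads the whole gene had 303 CPM in replicate 1 and 213 CPM in replicate 2. Itga4 (ENSMUSG00000027009.14; chromosome 2, 79255426 to 79333123, plus strand), the chain that gives the pair its VCAM-1 and fibronectin specificity, had 26.0 TPM in replicate 1 and 13.7 TPM in replicate 2. Beta1 exceeded alpha4 in both, by 9.07-fold in replicate 1 and 14.96-fold in replicate 2.

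Most of the beta1 level lay on a short transcript that does not encode the receptor. Itgb1-203, annotated as a retained intron of 651 bases and 4 exons, had 171 TPM in replicate 1 and 162 TPM in replicate 2, or 72.7% and 79.2% of the gene's TPM. Of its bases, 466 lie in exons of the full-length transcript and 185 in an intron. The full-length Itgb1-201, of 3815 bases and 16 exons with 2394 coding bases, had 58.2 TPM in replicate 1 and 30.03 TPM in replicate 2. By reads the order turned, since length no longer divides them: Itgb1-201 held 67.0% and 51.5% of the gene's reads, and Itgb1-203 held 31.7% and 44.7%. Single-end reads were split between the 2 by estimation, and reads in the shared exons can go to either. Of the 8 genes, Itgb1 was the 1 whose leading transcript was not protein-coding, against 18.2% of detected protein-coding genes. The following 2 stretches show where the transcripts part, on the plus strand at chr8:128710446-128713237 for Itgb1-201 and chr8:128710446-128710505 for Itgb1-203 (mm10, GENCODE M21 exons). Lower case is the exon that both share, and capitals are the next exon in Itgb1-201 and the intron in Itgb1-203.
Itgb1-201: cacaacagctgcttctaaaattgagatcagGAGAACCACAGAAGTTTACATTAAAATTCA
Itgb1-203: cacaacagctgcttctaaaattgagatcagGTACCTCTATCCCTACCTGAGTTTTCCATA

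The alpha4 gene had a plainer pattern. Itga4-201, of 9767 bases and 28 exons with 3096 coding bases, held 98.5% of the gene's TPM in replicate 1 and 99.4% in replicate 2. Setting full length against full length, Itgb1-201 exceeded Itga4-201 by 2.27-fold in replicate 1 and 2.21-fold in replicate 2. Over all protein-coding transcripts of both genes the ratio was 2.51 in replicate 1 and 3.12 in replicate 2. Exons of Itga4 overlap those of Cerkl, on the other strand, by 1124 bases. Cerkl had 86.2 and 46.8 reads, and whether counting used strand is not stated in the labels or file headers, so reads from that stretch are uncertain between the genes. A stretch of 218 bases of Itga4 is also 91.7% identical to Uggt2 (53 and 81 reads), and 1 of 208 bases is 90.9% identical to Olfr432 (0 reads).

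Among 12 alpha chains that can pair with beta1, 5 reached 1 TPM in both libraries, and Itga4 was the highest by mean. Itgav, the vitronectin receptor chain, came closest, with 13.4 TPM in replicate 1 and 14.0 TPM in replicate 2. In replicate 2 it lay just above the 13.7 TPM of Itga4, so the order of the highest 2 changed with the library. Itga6, a laminin receptor chain, had 8.04 and 9.16 TPM, of which 2.91 and 1.96 TPM were on protein-coding transcripts. Itga5, the other main fibronectin receptor chain, had 1.31 and 2.66 TPM. Itga1, Itga2 and Itga11 were at 0 in both libraries. By gene TPM the 12 chains summed to 50.4 TPM in replicate 1 and 42.4 TPM in replicate 2. Beta1 had 236 and 204.5 TPM on that measure. On protein-coding transcripts beta1 had only 64.3 TPM in replicate 1 and 42.5 TPM in replicate 2. Itga4 there had 25.6 and 13.6 TPM, and Itgav 13.2 and 14.0 TPM. The wide gap by gene TPM thus rested largely on beta1 transcripts that are not protein-coding.

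By gene TPM beta1 stood far above the other beta chains, and by less on protein-coding transcripts, where it had 64.3 and 42.5 TPM. Itgb2, the leukocyte chain, had 14.9 TPM in replicate 1 and 17.0 TPM in replicate 2, with 1.53 and 1.63 TPM on protein-coding transcripts. Itgb7, which also pairs with alpha4, had 6.62 and 13.3 TPM, all on protein-coding transcripts, and Itgb6 had 2.50 and 2.09 TPM. Itgb8 was at 0. Of the 8 beta chains 4 reached 1 TPM in both libraries.

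**Figure D2:**
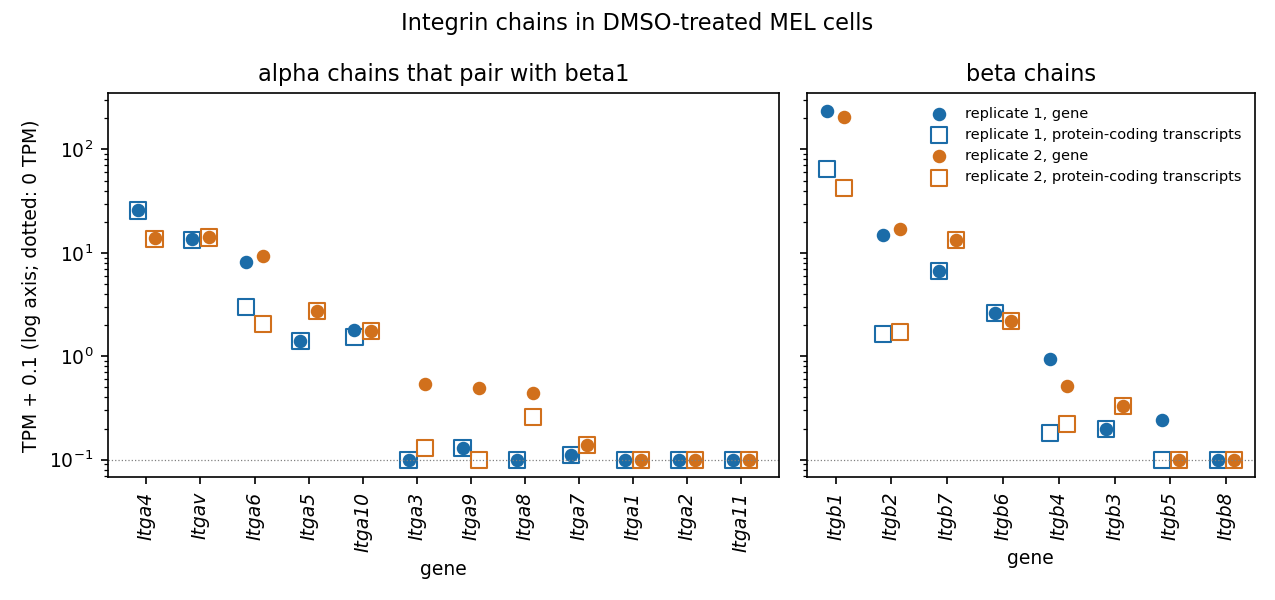
TPM plus 0.1 (log axis) of 12 alpha chains that pair with beta1 and of 8 beta chains, in both libraries, as gene level (circles) and protein-coding transcripts (squares), with a dotted line at 0 TPM. Itga4 and Itgav lead the alpha chains, and Itgb1 lies above every other beta chain on either measure.

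Proteins that switch integrins on and tie them to actin were broadly present. Of 18 listed genes, 14 reached 1 TPM in both libraries, with a median of 24.6 TPM over the list. Talin 1 (Tln1), which binds the beta tail, had 119 TPM in replicate 1 and 74.5 TPM in replicate 2, with 31.7 and 47.9 TPM on protein-coding transcripts. Ilk, a scaffold at the tail, had 64.5 and 116 TPM, with 12.2 and 22.5 TPM on protein-coding transcripts. Rap1b, the small GTPase upstream of talin, had 88.2 and 60.6 TPM, and Parva was at 0. On the counterpart side, 4 of 8 island ligands and counter-receptors passed. Maea, the erythroblast macrophage protein, had 40.8 TPM in replicate 1 and 67.7 TPM in replicate 2. Icam4, an erythroid ligand of alpha4 and alphaV integrins, had 8.74 and 46.5 TPM. The laminin chain Lama5 had 12.2 and 13.5 TPM, with 1.00 and 2.62 TPM on protein-coding transcripts, and Vcam1, the macrophage ligand of alpha4beta1, was at 0 in both.

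Cd44 (ENSMUSG00000005087.13; chromosome 2, 102811141 to 102901665, minus strand) was the second lowest of the 8. It had 5.70 TPM in replicate 1 and 3.16 TPM in replicate 2, from 612 and 174 reads. As a share of reads this was 23.4 CPM (exact 95% binomial interval 21.6 to 25.3) in replicate 1 and 12.3 CPM (10.5 to 14.3) in replicate 2. The intervals do not meet, so the libraries differed by more than counting error. Cd24a exceeded it by 33.8-fold in replicate 1 and 40.98-fold in replicate 2.

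CD44 messages can be told apart by their variable exons, which lengthen the stalk of the protein outside the cell. Cd44-207, of 5045 bases and 14 exons, carries 5 exons that are absent from Cd44-203, adding 636 coding bases. It had 4.22 TPM in replicate 1 and 1.63 TPM in replicate 2, or 74.1% and 51.6% of the gene. Cd44-203, of 2848 bases and 9 exons with 1095 coding bases, carries none of them and had 1.48 and 1.43 TPM. The form with variable exons thus exceeded the form without them by 2.85-fold in replicate 1 and by 1.14-fold in replicate 2. Cd44-201, with 10 exons absent from Cd44-203 and 1245 added coding bases, had 0 reads in replicate 1 and 7.75 in replicate 2, and the other 6 listed transcripts had 0. Cd44-207 also ends 1406 bases later, in a last exon of 3197 bases against 1791 for Cd44-203, so the split rests on the end of the message as well as on the variable exons. The junctions that tell these forms apart are printed on the minus strand of mm10, at chr2:102828581-102853044 for Cd44-203, chr2:102842348-102853044 for Cd44-207 and chr2:102848753-102853044 for Cd44-201. Lower case is the constant exon before the variable region, and capitals are the exon joined to it.
Cd44-207: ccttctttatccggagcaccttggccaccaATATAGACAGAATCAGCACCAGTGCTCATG
Cd44-203: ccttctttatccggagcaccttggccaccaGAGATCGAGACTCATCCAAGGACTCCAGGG
Cd44-201: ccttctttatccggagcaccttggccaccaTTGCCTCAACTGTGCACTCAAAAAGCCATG

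Linkers that fasten the tails of CD44 and CD43 to the cytoskeleton were plentiful beside the receptors. All 6 listed reached 1 TPM in both libraries, with a median of 45.3 TPM. Epb41, protein 4.1 of the red cell skeleton, had 251 TPM in replicate 1 and 165 TPM in replicate 2, with 150.4 and 27.1 TPM on protein-coding transcripts. Radixin (Rdx) had 222 and 78.2 TPM, Nf2 (merlin) had 41.4 and 54.8 TPM, and moesin (Msn), the lowest by mean, had 19.9 and 19.3 TPM. Of 10 genes that make, bind or break down hyaluronan, 5 passed, and the median was 2.24 TPM. Hmmr, a hyaluronan-binding protein of the mitotic spindle, had 69.3 TPM in replicate 1 and 31.4 TPM in replicate 2. Stab2 had 13.9 and 18.0 TPM (4.77 and 3.56 TPM on protein-coding transcripts), the lysosomal hyaluronidase Hyal1 had 8.99 and 20.5 TPM (2.63 and 7.89 TPM), and Stab1 was at 0.

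Spn (ENSMUSG00000051457.6; chromosome 7, 127132232 to 127137823, minus strand) encodes CD43. It had 12.1 TPM in replicate 1 and 7.89 TPM in replicate 2, and the libraries lay 1.53-fold apart. Spn-201, whose 1185 coding bases lie in 1 exon, held 97.7% of the gene's TPM in replicate 1 and 89.1% in replicate 2. Spn-202, annotated for nonsense-mediated decay, had 0.28 and 0.86 TPM. Of 8 other sialomucins and enzymes that build their sugars, 6 passed, with a median of 8.44 TPM. Cd164 (endolyn) had 25.0 and 41.4 TPM, and C1galt1, which makes the core O-glycan, had 23.2 and 18.3 TPM. St3gal1, which caps that glycan with sialic acid, had 13.2 and 23.8 TPM, and the progenitor sialomucin Cd34 was near 0 at 0.05 and 0.02 TPM.

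Bsg (ENSMUSG00000023175.11; chromosome 10, 79704491 to 79711969, plus strand) was the 1 gene of the 8 that was higher in replicate 2. It had 149 TPM in replicate 1 and 334 TPM in replicate 2, from 4288 and 5488 reads. That 2.25-fold gap was the widest of the 8 on the TPM scale.

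Basigin messages differ at their first exons. Bsg-202, of 1240 bases with 654 coding bases, begins at its own start within the gene and had 139 TPM in replicate 1 and 272 TPM in replicate 2, or 93.2% and 81.3% of the gene. Bsg-205, with 819 coding bases, begins at an upstream first exon of 94 bases and had 5.76 and 53.6 TPM. Bases 74 to 171 of Bsg-202 are non-coding there but coding in Bsg-205, so Bsg-202 lacks the first coding bases of Bsg-205. Most of the basigin level thus lay on a form with a shorter coding stretch than Bsg-205. Bsg-201, the long form with an extra exon of 348 bases that adds an immunoglobulin domain, had 0.76 and 5.31 TPM. The upstream-start forms stood 9.31-fold (Bsg-205) and 6.99-fold (Bsg-201) higher in replicate 2 than in replicate 1, against 1.96-fold for Bsg-202. The protein-coding Bsg-203 went the other way, with 2.94 TPM in replicate 1 and 0.49 TPM in replicate 2, from 62.5 and 5.88 reads. The upstream first exon has a GC content of 74.5%, and the 73 bases of Bsg-202 that Bsg-205 lacks have 50.7%. Bsg-202 and Bsg-205 share 1167 bases, so few bases tell them apart. Bsg-205 exceeded the long form by 7.58-fold in replicate 1 and 10.1-fold in replicate 2. The junctions that tell Bsg-205 and Bsg-201 apart lie on the plus strand of mm10, at chr10:79704555-79709700 for Bsg-205 and chr10:79704555-79708726 for Bsg-201. The first coding bases of Bsg-202, at chr10:79709769-79709798 on that strand, are shared with Bsg-205, so they do not tell the 2 apart. In the first 2 stretches below, lower case is the upstream first exon and capitals the exon joined to it. In the last the capitals mark the start codon.
Bsg-205: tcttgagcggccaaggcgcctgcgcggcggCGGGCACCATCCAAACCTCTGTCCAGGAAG
Bsg-201: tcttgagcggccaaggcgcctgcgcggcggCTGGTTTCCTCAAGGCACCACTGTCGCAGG
Bsg-202: ATGagaggtggcaaggtactgcaggaggac

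**Figure D3:**
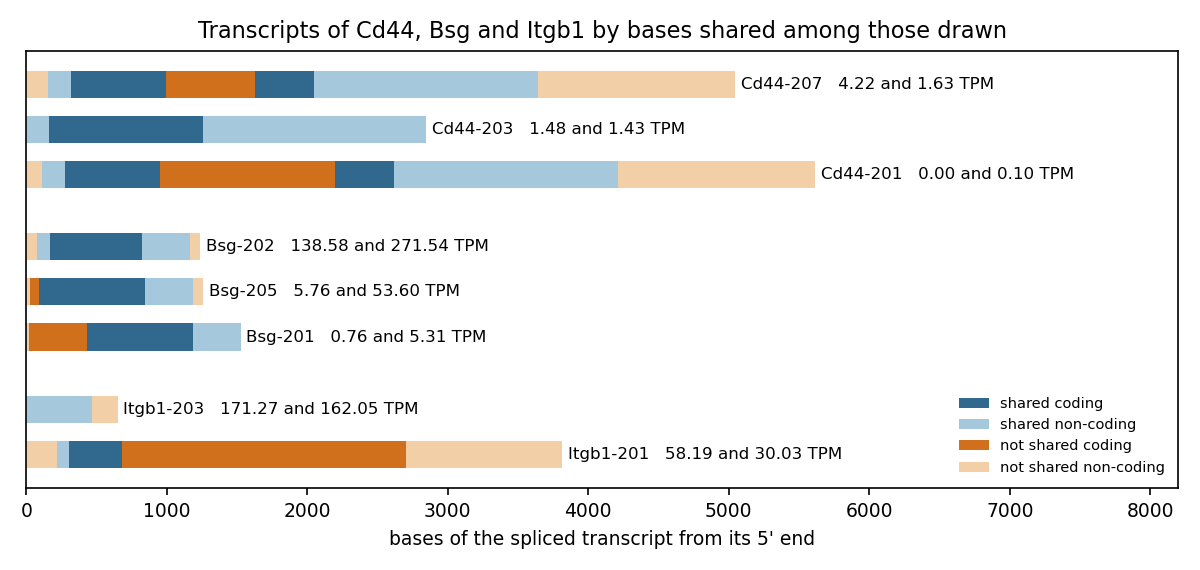
Spliced transcripts of Cd44, Bsg and Itgb1 drawn to scale in bases from the 5' end, coloured by whether their bases are shared among the transcripts drawn and whether they are coding, with TPM in replicates 1 and 2 beside each. Cd44-207 and Cd44-201 carry unshared coding blocks of 636 and 1245 bases, and Itgb1-203 covers a short stretch of Itgb1-201.

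Partners of basigin were measured on 8 genes, of which 5 passed, with a median of 22.7 TPM. Ppia, cyclophilin A, a ligand of basigin, had 324 TPM in replicate 1 and 343 TPM in replicate 2. Of this, 0 and 0.19 TPM lay on transcripts classed as protein-coding in GENCODE M21. A transcript missing from M21 would also count as not protein-coding, so this does not show that the message is non-coding. Neuroplastin (Nptn), its closest relative, had 261 and 158 TPM, with 23.0 and 16.5 TPM on protein-coding transcripts. The lactate exporter Slc16a3, which needs basigin to reach the surface, had 53.4 and 150 TPM. Emb (embigin), an alternative chaperone, was at 0. Slc16a1, named here after its values were seen because it is the other lactate transporter that basigin carries, had 17.7 and 23.5 TPM.

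Cd47 (ENSMUSG00000055447.14; chromosome 16, 49800533 to 49915010, plus strand) varied least of the 8 on the TPM scale, with 37.7 TPM in replicate 1 and 33.7 TPM in replicate 2. The libraries were 1.12-fold apart. Its 2 listed transcripts changed order with the measure. Cd47-202, of 867 bases, led by TPM with 23.1 and 25.5, or 61.3% and 75.7% of the gene. Cd47-201, of 5277 bases, most of it a long last exon, had 14.6 and 8.19 TPM but 80.1% and 67.1% of the reads. The later GENCODE M21 annotation lists 10 transcripts of Cd47, so the split between the 2 covers part of what is known of the gene. Of 10 genes for CD47 receptors and the band 3 and Rh complex in which CD47 sits in red cells, 8 passed, and the median was 66.7 TPM. Ankyrin (Ank1) had 206 TPM in replicate 1 and 225 TPM in replicate 2, and band 3 (Slc4a1) had 148 and 178 TPM. On protein-coding transcripts Ank1 had 49.6 and 109.6 TPM, and Slc4a1 had 11.1 and 39.4 TPM. The ligand thrombospondin 1 (Thbs1) had 0.01 TPM in replicate 1 and 0 in replicate 2. Sirpa, named after its values were seen because it is the macrophage receptor of CD47, had 0.06 and 0.07 TPM.

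Cd24a (ENSMUSG00000047139.8; chromosome 10, 43578284 to 43584265, plus strand) was among the 3 highest of the 8 by mean TPM. It had 192 TPM in replicate 1 and 129.5 TPM in replicate 2, from 8246 and 3137 reads, all on its single listed transcript of 1813 bases. The protein is short, with 76 codons. Processed pseudogenes match part of the transcript, at positions not determined here, and the coding sequence follows. It lies on the plus strand at chr10:43579254-43582762 (mm10, GENCODE M21), is printed without the stop codon and in lower case throughout, and has 228 bases.
Cd24a-201: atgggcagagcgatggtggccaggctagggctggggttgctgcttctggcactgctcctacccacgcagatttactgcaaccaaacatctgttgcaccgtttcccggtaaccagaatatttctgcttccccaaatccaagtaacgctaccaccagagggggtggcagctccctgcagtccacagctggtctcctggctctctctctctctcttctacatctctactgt
The pseudogene Gm15352, 91.9% identical over 258 bases, had 0 reads, and Gm6212, 95.2% identical over 228 bases, was not analysed here, so reads of a copy could be counted for Cd24a. Of 8 other lipid-anchored surface proteins, 4 passed, with a median of 1.49 TPM. Cd55, which protects cells from complement, had 44.1 TPM in replicate 1 and 19.5 TPM in replicate 2. The prion protein gene Prnp had 23.7 and 37.6 TPM, Cd48 had 19.99 and 35.05 TPM, and Cd59b had 0.11 and 0 TPM.

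Cd36 (ENSMUSG00000002944.11; chromosome 5, 17781690 to 17888801, minus strand) was close to the 1 TPM limit set for detection, at 1.62 TPM in replicate 1 and 1.04 TPM in replicate 2. It had 132 and 48 reads, or 5.05 CPM (exact 95% binomial interval 4.22 to 5.99) and 3.39 CPM (2.50 to 4.50). Cd24a exceeded it by 119-fold in replicate 1 and 125-fold in replicate 2. Cd36-204 held 99.8% and 100% of its TPM. The deposited posterior means put that transcript's share at 39.4%, so the 4 listed transcripts, with equal coding length, could not be told apart at this depth. Of 8 relatives and partners of CD36, 4 passed, with a median of 2.14 TPM. The HDL receptor Scarb1 had 35.4 TPM in replicate 1 and 81.4 TPM in replicate 2, the lysosomal Scarb2 had 18.6 and 13.6 TPM, and the kinase Lyn had 17.2 and 10.8 TPM. On protein-coding transcripts Scarb1 had 21.1 and 31.8 TPM, and Lyn had 8.53 and 10.8 TPM. Fabp4, a fatty acid carrier, was at 0.

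**Figure D4:**
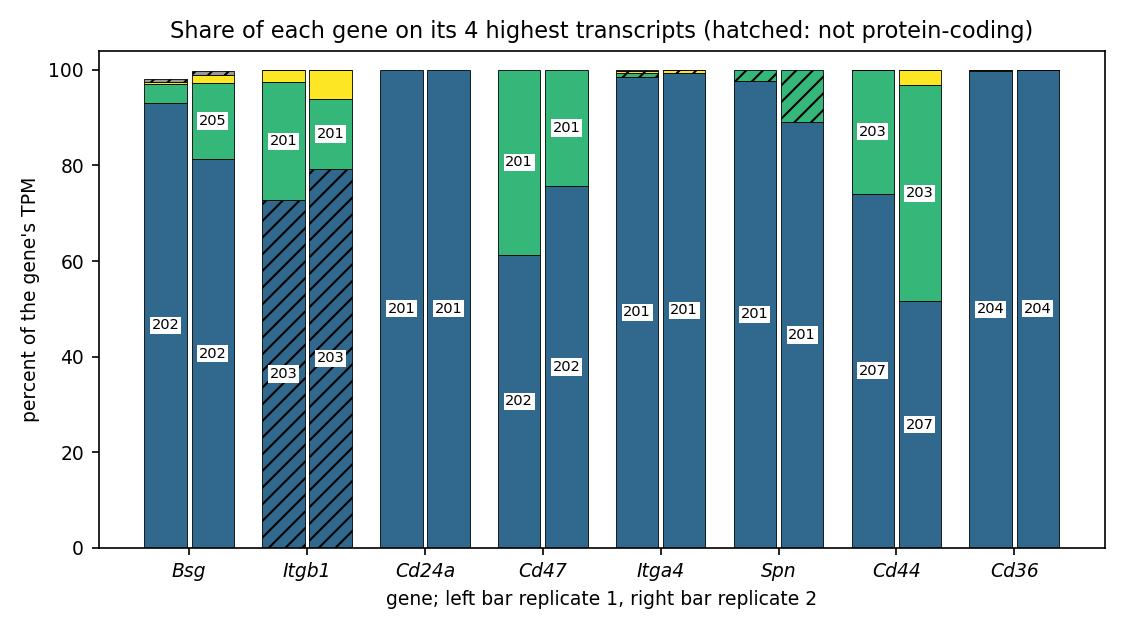
Percent of each gene's TPM on its 4 highest transcripts, as stacked bars for replicate 1 (left) and replicate 2 (right), with transcript numbers inside and hatching for transcripts that are not protein-coding. Itgb1 is hatched for 72.7% and 79.2% of its bars, while Itga4, Cd24a and Cd36 are nearly 1 colour.

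Other markers used to stage erythroblasts were read beside these genes. Of 7, 5 passed, with a median of 85.6 TPM. Ermap, an erythroid membrane protein, had 118 TPM in replicate 1 and 103 TPM in replicate 2, and the transferrin receptor Tfrc had 125 and 65.2 TPM. On protein-coding transcripts Ermap had 62.7 and 53.4 TPM, and Tfrc had 65.0 and 56.1 TPM. Kit, the stem cell factor receptor of early progenitors, had 0.10 and 0.01 TPM. By TPM Cd44 lay between Kit and Tfrc in both libraries. That span is wide and also held Cd36, Spn, Itga4 and Cd47, so it places Cd44 at no stage.

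The libraries were then set against each other. On counts scaled by the trimmed mean of M-values (TMM), 7 of 8 genes were lower in replicate 2 than in replicate 1, against 49.7% of the 12394 genes with at least 10 counts in both libraries. The exception was Bsg, at a log2 ratio of 0.96 (replicate 2 over replicate 1), where 50.3% of all genes were higher. Cd44 had -1.20, Itga4 -1.13, Spn -0.88, Cd36 -0.84, Cd47 -0.80, Itgb1 -0.79 and Cd24a -0.79. The median of the 8 was -0.82, against 0.0071 over all genes. At least 2-fold lower were 2 of 8, Cd44 and Itga4, against 14.5% of genes, and at least 2-fold higher were 0 of 8, against 12.4%. With 1 library on each side these ratios have no replicate check.

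GC content moved with the ratio between the libraries. Across the 8976 protein-coding genes that averaged 100 counts or more, Spearman's rho between transcript GC content and the log2 ratio was 0.781. This is a description across genes, which share both libraries and are no replicates. The 6 genes Cd36, Itga4, Cd47, Cd24a, Cd44 and Itgb1 had GC contents of 38.4% to 45.4%, below the median of 50.2%, and Bsg had 54.5%. With the trend of the ratio on GC removed, Cd47 stood at 0.09, Cd24a at 0.09 and Cd36 at 0.40, so 4 of 8 genes were lower in replicate 2. Bsg stood at 0.47 and Cd44 at -0.51. Spn, with 53.1% GC, moved the other way, to -1.21. The part of GC content in these differences was not tested.

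**Figure D5:**
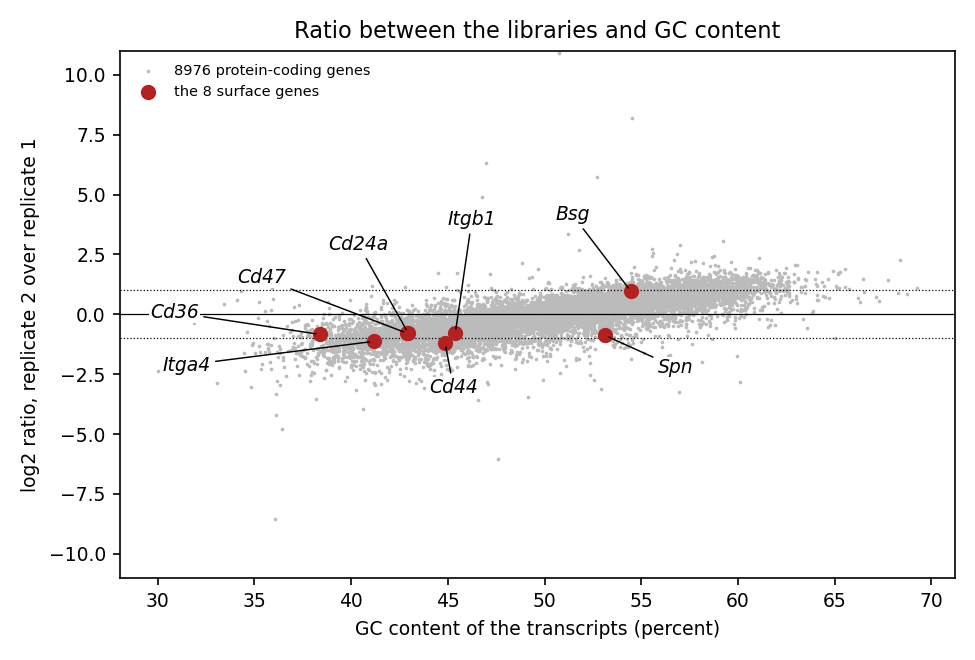
Log2 ratio of counts (replicate 2 over replicate 1) against the GC content of the transcripts in percent, for 8976 protein-coding genes (grey) and the 8 surface genes (red), with dotted lines at 2-fold. Bsg lies above 0 at 54.5% GC, 6 genes lie below 0 at 38.4% to 45.4%, and Spn lies below 0 at 53.1%.

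Of the listed genes that are not among the 8, 71 had a ratio, with a median of 0.13. Of these, 8 were at least 2-fold higher in replicate 2 and 6 at least 2-fold lower. Over all genes with a ratio, 12.4% were at least 2-fold higher and 14.5% at least 2-fold lower. The counts per list below are to be read beside these shares. Icam4 had 2.19, Slc16a3 1.51, Cd55 -1.41 and Rdx -1.28 on the log2 scale. As a list, the alpha chains had 1 gene at least 2-fold lower of 5 with a ratio, the beta chains 0 of 6 in either direction, and the activation genes 2 higher and 1 lower of 14. The hyaluronan genes had 2 higher and 2 lower of 7, and the lipid-anchored proteins 2 lower of 4. Island ligands had 1 higher of 4, basigin partners 1 of 5, the CD47 complex 1 of 8 and staging markers 1 of 5, while the linkers had 1 lower of 6. Scavenger receptor and sialomucin lists had 0 in either direction.

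The protein-coding genes nearest to each of the 8 were found by distance in log2(TPM + 0.1) over the 2 libraries, which says only that their levels were alike. Cd44 lay nearest to Mfsd8 (distance 0.0136) and Slc18a2 (0.0261), and Cd47 to Arhgef12 (0.0028) and Klf3 (0.0073). Itga4 lay nearest to Ppa1 (0.0126) and Cpne8 (0.0201), Itgb1 to Cct8 (0.0549) and Ndufv3 (0.124), and Bsg to Prkab1 (0.0357). Cd24a lay nearest to Bclaf1 (0.0208) and Rsrp1 (0.0318), Cd36 to Fam174b (0.0152) and Naip6 (0.0167), and Spn to Ocrl (0.0216) and Abhd18 (0.0304).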

How the data were processed

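Single-end RNA-seq of polyadenylated RNA was deposited for 2 libraries of DMSO-treated MEL cells, with 1 gene table and 1 transcript table each. The authors mapped to mm10 and counted on GENCODE M4, per the labels and file lists. Neither names the program, its version or its use of strand. Expected counts (estimated reads, not always whole) were deposited unscaled, per the file headers. The authors also deposited TPM and FPKM, both scaled to length, with posterior means, and FPKM served only as an alternative for detection. Transcript tables add the deposited percent of its gene that a transcript makes up. In both libraries effective length was 44 bases under length.

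Symbols, transcript classes, coordinates and sequences came from GENCODE M21 on mm10, which matched 42462 of 43346 gene IDs. Of the 33 transcripts, those of Cd24a, Cd47 and 3 of Cd36 differ in length between the annotations. The 26345 rows with no gene name (0.0296% of the reads of replicate 1 and 0.0465% for replicate 2) stayed out of scaling and ratios.

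Expected counts were rounded for edgeR 4.0.16 TMM factors and DESeq2 1.42.0 size factors (R 4.3.3). Ratios used a prior count of 1 and genes with at least 10 counts in both libraries, and called meant at least 2-fold. A gene was detected at 1 TPM or more in each library. Lowess (span 0.3, 3 iterations) gave the trend on GC content, from protein-coding genes that averaged 100 counts or more. Copies were sought with BLAST+ 2.17.0 at 90% identity over at least 200 bases. Other steps used Python 3.11.15, pandas 2.3.3, numpy 2.4.6, scipy 1.17.1, statsmodels 0.14.6 and matplotlib 3.10.9. The ratio steps were tested on simulated data. There is 1 group, so no p-value was computed.

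The 8 genes and the partner lists were chosen with earlier results of these data known. Named genes were the 8, the 3 highest and the lowest of each list by mean TPM, the 2 nearest genes, overlapping genes and copies, of which 2 are not reported here. Slc16a1 and Sirpa were named after their values were seen. Alternatives were other scalings, prior counts, filters, detection limits, units, pseudocounts and each library alone.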

Additional observations from a re-analysis of the deposited data

How the results depend on the processing

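The count of detected genes was 8 under each alternative except a limit of 5 TPM, where it was 6. Counts of genes at least 2-fold apart rested on the scaling. The count higher in replicate 2 was 0 with TMM and 1 (Bsg) with library totals and with TPM at a pseudocount of 0.1 or 1. The count lower in replicate 2 was 2 with TMM, 0 with library totals and with either TPM pseudocount, and 1 (Spn) with the GC trend removed. Library totals shift the median ratio of all genes by 0.28 and TPM by 0.23 (log2), and the other causes were not tested. Removing the GC trend changed the sign of 3 of 8 ratios, and no other scaling or unit changed any. Of 48 ratios under alternatives, 30 moved by more than counting error. Mean TPM moved by more than 1 SD between the libraries in 1 of 32, Itgb1 on protein-coding transcripts, an alternative chosen after seeing the data. By expected counts the leading transcript's share was 26.4% for Cd47-202 and 38.2% for Itgb1-203. Overlap of ranges was seen in 6 of 28 pairs by CPM. With 1 library left out, the mean moves by under 1 SD by construction, and Bsg stood at 149 or 334 TPM. Depth limits Cd36 and the Cd44 forms. No paired analysis was possible because there is 1 group.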
